A study of Homo sapiens with 18 samples.

Results

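The 9 genes TPCN2, CCND1, ORAOV1, FGF19, ANO1, FADD, PPFIA1, CTTN and SHANK2 are neighbors on the long arm of chromosome 11, in band 11q13. They were picked by symbol from 19901 genes counted by mRNA sequencing in 3 head and neck squamous cell carcinoma (HNSCC) lines. Detroit 562 came from a metastasis of a pharynx tumor, FaDu from a primary tumor of the hypopharynx and SCC-9 from a primary tumor of the tongue. In each line, 3 libraries were from untreated cells (control) and 3 from cells given hepatocyte growth factor (HGF, the ligand of the Met receptor) at 50 ng/mL for 16 h, although the series record gives 48 h. All cells came from ATCC, and no gene was deleted or introduced. The growth medium was MEM-α for Detroit 562 and FaDu but DMEM F12 with hydrocortisone for SCC-9, so line and medium cannot be told apart in comparisons with SCC-9. Each line stands for 1 tumor. The study's methods state that the experiment was repeated, without tying the library numbers to the repeats, and the labels do not name separate cultures, so the p-values measure the spread between these libraries.

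Band 11q13 is a region that carcinomas of the head and neck often carry in extra copies, and a gene with more copies is often, but not always, transcribed more. CCND1 encodes cyclin D1, which activates CDK4 and CDK6 and so allows entry into S phase. FADD is the adaptor that links death receptors to caspase-8, CTTN encodes cortactin, a regulator of branched actin, and PPFIA1 encodes liprin-α1, a scaffold at focal adhesions and the cell edge. ANO1 is a calcium-activated chloride channel, TPCN2 a cation channel of lysosomes, SHANK2 a scaffold best known from synapses, and FGF19 a hormone-like ligand of FGFR4 with β-Klotho. ORAOV1, now called LTO1, takes part in maturation of the iron-sulfur protein ABCE1. DNA copy number was not measured here, and in bulk RNA a smaller number of cells expressing a gene and less RNA per cell cannot be told apart.

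Total counts per library were between 35304770 and 44003970, with a median of 40138919. Each line had the transcripts of an epithelial tumor cell. The summed level of 8 epithelial markers ran from 5710 to 13400 CPM (counts scaled to a common library size) in control libraries, with CDH1 and TP63 high in all 3 lines and KRT14 low in Detroit 562 (1.23 CPM). The 5 fibroblast markers summed to 4.01 to 99.3 CPM and the 4 endothelial markers to 1.02 to 8.34 CPM. The 5 leukocyte markers summed to 20.3 to 65.0 CPM, mostly CD68, whereas the pan-leukocyte gene PTPRC had at most 3 counts in a control library. PDGFRB was at 0 in Detroit 562, and CD3E and KDR were at 0 in FaDu.

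In GRCh38, the deposited table placed TPCN2 at chr11:69048897-69162440, CCND1 at chr11:69641087-69654474, ORAOV1 at chr11:69653076-69675416, FGF19 at chr11:69698232-69704642 and ANO1 at chr11:70078302-70189528. FADD followed at chr11:70203163-70207390, PPFIA1 at chr11:70270700-70385312, CTTN at chr11:70398404-70436584 and SHANK2 at chr11:70467856-71252577. ORAOV1, FGF19 and SHANK2 are on the minus strand and the others on the plus strand. The 9 genes thus cover 2203.7 kb, with the widest gap of 478.65 kb between TPCN2 and CCND1. The ends of CCND1 and ORAOV1 overlap on opposite strands, and reads were counted by strand. Reads were counted over the whole extent of a gene, introns included. A small gene on the strand of TPCN2, RP11-554A11.10, lies within it and had at most 0.682% of its counts.

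RefSeq promoter windows, 250 bases before to 50 bases after the start, were matched for 5 of the 9 genes (TPCN2, ORAOV1 as LTO1, ANO1, FADD and PPFIA1) in GRCh38.p14. Shown here are those of 3 genes whose levels ran together across the libraries, and of ANO1, whose levels did not. Capitals mark the GC box GGGCGG and, overlaid where it occurs, the ETS motif CCGGAAG on either strand. The windows lie at chr11:70203046-70203345 (FADD, plus strand), chr11:70270440-70270739 (PPFIA1, plus), chr11:69675304-69675603 (ORAOV1, minus) and chr11:69985657-69985956 (ANO1, plus).
FADD: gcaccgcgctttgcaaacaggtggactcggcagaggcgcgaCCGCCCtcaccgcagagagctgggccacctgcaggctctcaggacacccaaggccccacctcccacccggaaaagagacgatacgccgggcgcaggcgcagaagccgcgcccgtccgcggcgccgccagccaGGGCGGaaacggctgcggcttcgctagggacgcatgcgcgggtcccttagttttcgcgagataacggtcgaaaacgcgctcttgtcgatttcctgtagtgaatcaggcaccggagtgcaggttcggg
PPFIA1: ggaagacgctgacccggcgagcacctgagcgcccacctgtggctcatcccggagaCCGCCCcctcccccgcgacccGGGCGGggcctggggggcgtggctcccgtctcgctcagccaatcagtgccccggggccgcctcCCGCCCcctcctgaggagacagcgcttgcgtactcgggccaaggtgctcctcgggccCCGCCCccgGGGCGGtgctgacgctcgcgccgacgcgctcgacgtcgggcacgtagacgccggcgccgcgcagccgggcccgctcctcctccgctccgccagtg
ORAOV1: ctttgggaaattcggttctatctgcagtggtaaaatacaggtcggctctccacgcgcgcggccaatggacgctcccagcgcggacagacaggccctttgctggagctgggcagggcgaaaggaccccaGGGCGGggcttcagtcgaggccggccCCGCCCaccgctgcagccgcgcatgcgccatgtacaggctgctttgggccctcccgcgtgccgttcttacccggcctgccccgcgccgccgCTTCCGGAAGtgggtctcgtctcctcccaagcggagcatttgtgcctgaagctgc
ANO1: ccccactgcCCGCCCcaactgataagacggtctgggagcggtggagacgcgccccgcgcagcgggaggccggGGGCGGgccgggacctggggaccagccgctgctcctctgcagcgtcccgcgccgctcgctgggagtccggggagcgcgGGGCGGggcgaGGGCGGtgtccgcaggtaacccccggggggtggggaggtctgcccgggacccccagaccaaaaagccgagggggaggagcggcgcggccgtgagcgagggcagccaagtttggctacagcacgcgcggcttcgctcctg

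All 5 matched windows were rich in G and C, from 66.0% in TPCN2 to 77.7% in PPFIA1, against a median of 58.7% over 35116 windows. The GC box was found in all 5, with 2 matches in FADD and 5 in PPFIA1, and is present in 45.0% of all windows. The ETS motif was found in ORAOV1 alone of the 5, as 2 overlapping matches on opposite strands, and is present in 10.3% of all windows. The TATA box TATAAA (held by 11.5% of all windows), the AP-1 site TGACTCA (4.9%), the cyclic AMP response element TGACGTCA (1.8%) and the E-box CACGTG (7.3%) had no match in the 5. These matches describe letters only. The ANO1 window lies upstream of the extent over which ANO1 reads were counted.

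The first comparison was of untreated levels across the lines. Genes were tested with edgeR on all 18 libraries over 15475 genes, and calls required both a log2 difference of at least 0.4 in either direction and an adjusted p under 0.1. All 9 genes were tested, FGF19 only because of its counts in FaDu, and the size of its fitted difference from Detroit 562 depends on the prior count. FaDu had the highest level of 7 of the 9 genes, SCC-9 the lowest of 7, and Detroit 562 lay between them for TPCN2, ORAOV1, FADD, PPFIA1, CTTN and SHANK2. This order, with both steps called, was found in those 6 of the 9 genes and in 3.6% of all genes tested; it was singled out after the values were seen. CCND1, ANO1 and FGF19 followed other orders.

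Of the 9 genes, 8 were lower in Detroit 562 than in FaDu and 0 higher, where 29.8% of all genes tested were called lower, 31.2% higher and 61% in either direction. Their median log2 difference was −1.64, against −0.01 for all genes. Compared with SCC-9, Detroit 562 had 7 genes higher and 2 lower, with 31.4% of all genes called higher, 33.9% lower and 65.4% in either direction. The median of the 9 was 1.65, against −0.03. FaDu had 8 genes higher than SCC-9 and 0 lower, where 30.7% of all genes were called higher, 33.5% lower and 64.2% in either direction, and the median was 2.83 against −0.02. With 3 libraries per group the smallest p of a two-sided exact permutation test was 0.1, and it was reached in all 27 comparisons because no groups overlapped. Non-overlap was common among all genes too (74%, 80.7% and 78.6% in the 3 comparisons). The comparisons share libraries and are not independent. FGF19 is among the 8 genes called in each comparison with FaDu and among the 7 highest in that line. It passed the filter only through FaDu, so its calls are no support for a higher level there.

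**Figure D1:**
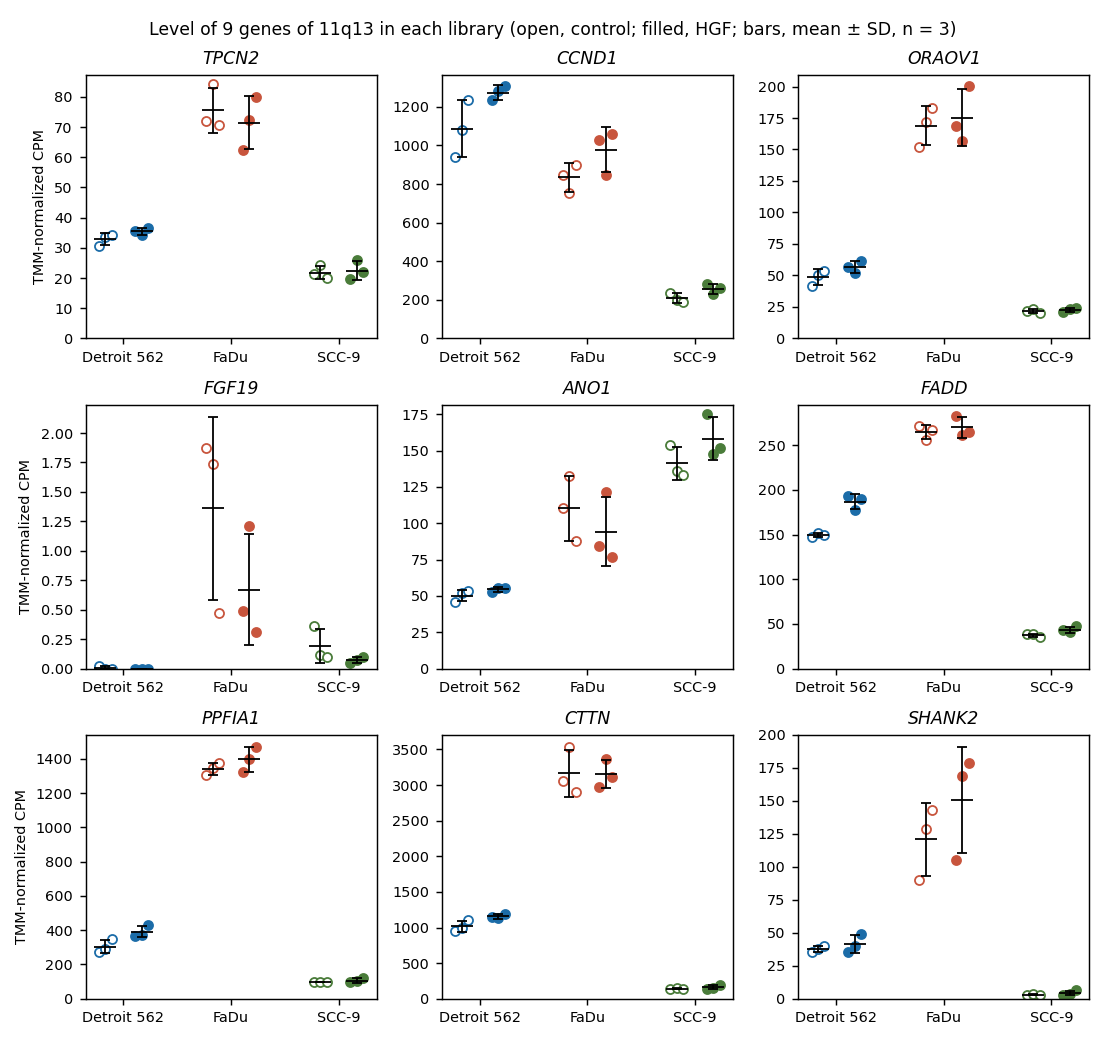
Level of each of the 9 genes (vertical axis, TMM-normalized CPM) by cell line. Open circles are control and filled circles HGF libraries, and bars give the mean ± SD of 3 libraries. FaDu is highest in 7 panels, whereas CCND1 is highest in Detroit 562 (1087 CPM) and ANO1 in SCC-9 (141 CPM).

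CCND1 was highest in Detroit 562, whereas TPCN2 and ORAOV1 on either side of it were highest in FaDu. Control levels of CCND1 were 942, 1081 and 1238 CPM in Detroit 562, 849, 754 and 899 CPM in FaDu and 236, 200 and 190 CPM in SCC-9. The libraries of the 3 lines did not overlap, but the gap between Detroit 562 and FaDu was narrow. Detroit 562 and FaDu were above SCC-9 by log2 differences of 2.38 (SE 0.12, edgeR adjusted p = 1.32e-11) and 2.00 (SE 0.12, edgeR adjusted p = 1.12e-10). The log2 difference of 0.38 between Detroit 562 and FaDu (95% interval 0.14 to 0.62, edgeR adjusted p = 0.00596) was under the minimum of 0.4 and was not called. Without Detroit 562 control 1 or FaDu control 3 it was 0.48 or 0.44 and was called.

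ORAOV1, whose end overlaps that of CCND1, followed another order. Its control levels were 41.5, 50.1 and 53.9 CPM in Detroit 562, 152, 172 and 183 CPM in FaDu and 21.5, 23.5 and 20.2 CPM in SCC-9. FaDu stood far above both other lines. The log2 difference of ORAOV1 was −1.80 between Detroit 562 and FaDu (SE 0.11, edgeR adjusted p = 3.08e-10) and 2.96 between FaDu and SCC-9 (SE 0.12, edgeR adjusted p = 1.19e-12). CCND1, which overlaps it, differed between Detroit 562 and FaDu in the opposite direction, with the value given above.

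CTTN was the most abundant of the 9 in FaDu. Its control levels were 956, 998 and 1100 CPM in Detroit 562, 3060, 3533 and 2897 CPM in FaDu and 139, 157 and 135 CPM in SCC-9. FaDu was 3.11-fold above Detroit 562 (edgeR adjusted p = 7.98e-10) and 22-fold above SCC-9 (edgeR adjusted p = 2.06e-14). Per kilobase of exon, CTTN in control FaDu reached 455 CPM per kb, a level that placed it at the 99.6th percentile of all genes tested, while in SCC-9 its 20.7 CPM per kb placed it at the 85.5th percentile.

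PPFIA1, the neighbor of CTTN at a distance of 13.09 kb, showed the same order. Control levels were 272, 292 and 349 CPM in Detroit 562, 1307, 1344 and 1376 CPM in FaDu and 97.1, 99.1 and 94.9 CPM in SCC-9. FaDu was 4.41-fold above Detroit 562 (edgeR adjusted p = 4.75e-12) and 13.8-fold above SCC-9 (edgeR adjusted p = 1.32e-14). Among the 9 genes, the difference between Detroit 562 and FaDu was largest for PPFIA1 apart from FGF19.

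FADD had the smallest standard error of the 9 genes in the fitted differences between the lines, 0.06 to 0.07 on the log2 scale. Its control levels were 148, 151 and 150 CPM in Detroit 562, 271, 256 and 267 CPM in FaDu and 38.5, 38.2 and 35.3 CPM in SCC-9. FaDu was 1.77-fold above Detroit 562 (edgeR adjusted p = 2.74e-09) and 7.09-fold above SCC-9 (edgeR adjusted p = 2.03e-15). FADD is a short gene, and at 155 CPM per kb in FaDu its level per length followed, among the 9, those of CTTN (455 CPM per kb) and CCND1 (175 CPM per kb).

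SHANK2 differed most between FaDu and SCC-9. Its control levels were 35.1, 37.6 and 40.3 CPM in Detroit 562, 89.9, 129 and 143 CPM in FaDu and 2.92, 3.30 and 2.98 CPM in SCC-9. The fold between FaDu and SCC-9 was 39.3 (edgeR adjusted p = 3.44e-11) and that between Detroit 562 and SCC-9 12.3 (edgeR adjusted p = 2.32e-09). The extent counted for SHANK2 is 784.72 kb, most of it intron, against 18.894 kb of exon. Its level per length was low in every line, from 0.162 CPM per kb in SCC-9 to 6.39 in FaDu.

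TPCN2, at the centromeric end, had the smallest of the called differences between FaDu and SCC-9. It stood at 30.8, 33.4 and 34.4 CPM in control Detroit 562, 72.0, 84.2 and 70.6 CPM in FaDu and 21.2, 24.2 and 20.0 CPM in SCC-9. The groups did not overlap, and FaDu was 2.30-fold above Detroit 562 (edgeR adjusted p = 3.28e-08) and 3.46-fold above SCC-9 (edgeR adjusted p = 2.34e-10). The step from SCC-9 to Detroit 562 was 1.51-fold (edgeR adjusted p = 0.000118).

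ANO1 was the member with its highest level in SCC-9. Control levels were 45.7, 51.7 and 53.4 CPM in Detroit 562, 110, 133 and 87.9 CPM in FaDu and 154, 136 and 134 CPM in SCC-9. Detroit 562 was below SCC-9 by a log2 difference of −1.49 (SE 0.16, edgeR adjusted p = 1.51e-07) and below FaDu by one of −1.13 (SE 0.15, edgeR adjusted p = 4.3e-06). FaDu and SCC-9 were neighbors in the order, with a log2 difference of −0.36 (95% interval −0.68 to −0.04, edgeR adjusted p = 0.0416) that was under the minimum of 0.4. Without FaDu control 2, the highest FaDu library, it was −0.51 and was called.

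FGF19 was near the limit of detection. The control libraries of Detroit 562 held 1, 0 and 0 counts, those of FaDu 79, 69 and 20 and those of SCC-9 15, 5 and 4. FaDu control 3 was well below FaDu controls 1 and 2. The depth-scaled ratio of FaDu to SCC-9 over the summed counts was 6.92 (95% interval 4.50 to 11.1, counting error only). The log2 difference from edgeR was 2.78, with an adjusted p of 0.000802. FGF19 passed the filter only through FaDu, so this p is no support for a higher level there. Without SCC-9 control 1, which held 15 of the 24 SCC-9 counts, the log2 difference was 3.58. Against the 1 count in Detroit 562 the ratio was 157 for FaDu (95% interval 27.8 to 6240) and 22.7 for SCC-9 (3.70 to 933), intervals that cover counting error only. β-Klotho (KLB), the co-receptor of FGF19, had at most 9 counts in any control library, and its receptor FGFR4 had 3.77, 10.0 and 2.11 CPM in Detroit 562, FaDu and SCC-9.

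Ordered by position, the log2 difference between FaDu and SCC-9 was 1.79 for TPCN2, 2.00 for CCND1, 2.96 for ORAOV1, 2.78 for FGF19 and −0.36 for ANO1. Beyond ANO1 it was 2.83 for FADD, 3.79 for PPFIA1, 4.46 for CTTN and 5.30 for SHANK2. The 4 telomeric members thus had successively larger differences, and ANO1, 13.63 kb from FADD, stood apart from both of its neighbors. The same 4 genes differed between Detroit 562 and SCC-9 by 2.00, 1.65, 2.82 and 3.62, and between Detroit 562 and FaDu by −0.82, −2.14, −1.64 and −1.68.

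**Figure D2:**
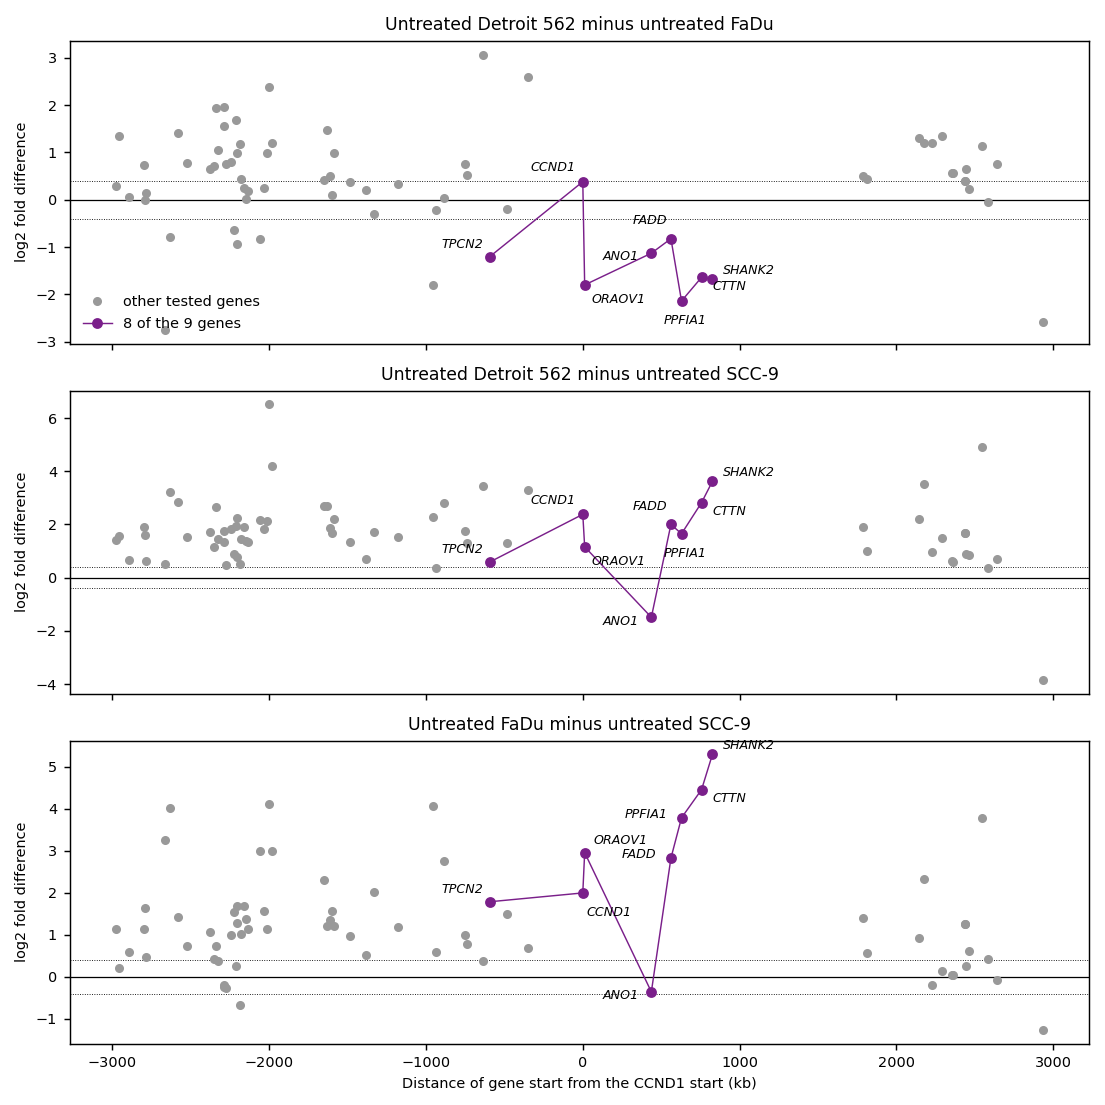
Log2 difference between untreated lines (vertical axis) against distance of the gene start, in the coordinates of the table, from that of CCND1 (horizontal axis, kb). Joined points are 8 of the 9 genes, gray points the other tested genes within 3000 kb, and dotted lines ±0.4. FGF19 and FGF4 are left out because of their low counts. In the lowest panel FADD, PPFIA1, CTTN and SHANK2 climb from 2.83 to 5.30, while ANO1 lies at −0.36.

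Other genes of the same interval and both flanks were taken from lists by position. MYEOV, between TPCN2 and CCND1, was highest in Detroit 562, with 58.8 CPM ± 9.37 (SD, n = 3) against 9.78 ± 3.14 in FaDu and 6.05 ± 1.62 in SCC-9. Its log2 difference between Detroit 562 and FaDu was 2.59 (SE 0.24, edgeR adjusted p = 3.78e-08), in the direction of CCND1 and opposite to TPCN2. FGF4 and FGF3, which lie telomeric of FGF19, were scarce. FGF4 had 63 to 115 counts in the FaDu control libraries and at most 2 in those of the other lines, and FGF3 had at most 7 in any.

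Of the centromeric list, 8 of 9 genes were tested. Detroit 562 was higher than FaDu in 3 and lower in 1, where 31.2% and 29.8% of all genes were, with a median log2 difference of 0.18. Examples are MRPL21, a mitochondrial ribosomal protein, at 0.75 and CPT1A, which imports fatty acids into mitochondria, at 0.03 (edgeR adjusted p = 0.842). Of the telomeric list, 12 of 15 genes were tested, and Detroit 562 was higher than FaDu in 9 and lower in 0, with a median of 0.56. DHCR7, the last enzyme of cholesterol synthesis, was at 0.50 and NADSYN1, which makes NAD, at 0.45. The 9 genes had a median of −1.64 in this comparison, so their median and those of the flanks lay on opposite sides of 0. Single genes departed from this, with GAL, the centromeric gene called lower, at −1.80 and CCND1 at 0.38.

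Against SCC-9 the medians of the flanks lay on the same side of 0 as that of the 9 genes. Detroit 562 was higher in 7 of 8 centromeric and 11 of 12 telomeric genes and lower in none of either list, with medians of 1.73 and 0.95. FaDu was higher than SCC-9 in 7 of 8 and 7 of 12, lower in none of either list, with medians of 1.10 and 0.50. Of all genes, 31.4% were called higher than SCC-9 in Detroit 562 and 30.7% in FaDu, and 33.9% and 33.5% lower. Over the 875 tested genes of chromosome 11, the median log2 difference was 0.33 for Detroit 562 minus FaDu, 0.40 for Detroit 562 minus SCC-9 and −0.06 for FaDu minus SCC-9. In the stretch from 1000 to 5000 kb telomeric of CCND1, 30 of 38 genes were higher in Detroit 562 than in FaDu and 3 lower. Of all genes, 31.2% were called higher and 29.8% lower in that comparison. FaDu minus SCC-9 had a median of 0.04 in this stretch, with 11 higher and 13 lower. Genes within 1000 to 5000 kb on the centromeric side had a median of 0.97 for FaDu minus SCC-9, with 81 of 121 higher and 23 lower. For Detroit 562 minus FaDu their median was 0.43, with 61 higher and 16 lower.

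Related genes elsewhere in the genome were compared as a list of 20 paralogs, 16 of which were tested. FaDu was higher than SCC-9 in 2 and lower in 10, with a median log2 difference of −1.22, where the 9 genes had 2.83. Of the other D-type cyclins, CCND3 was highest in SCC-9 (94.5 CPM) and lowest in FaDu (43.1 CPM), and CCND2 was highest in FaDu (11.03 CPM). TPCN1 had 59.1 CPM in SCC-9 against 22.1 in FaDu, and SHANK3 had 18.8 against 6.05, the reverse of the order of TPCN2 and SHANK2. Between Detroit 562 and FaDu, 6 paralogs were higher and 3 lower (median 0.26). Between Detroit 562 and SCC-9, 1 was higher and 8 lower (median −0.63). Of all genes, 61% were called between Detroit 562 and FaDu, 65.4% between Detroit 562 and SCC-9 and 64.2% between FaDu and SCC-9.

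Of 25 genes for proteins that work with the members, 24 were tested. Detroit 562 was higher than FaDu in 11 and lower in 6, and higher than SCC-9 in 10 and lower in 8. FaDu was higher than SCC-9 in 5 and lower in 9. In this order, 17, 18 and 14 of 24 were called in either direction, against 61%, 65.4% and 64.2% of all genes. The medians of these partners were 0.16, 0.07 and −0.06. CDK4 and CDK6, the kinases that cyclin D1 activates, were both highest in Detroit 562, at 326 and 245 CPM. CDKN2A, whose product p16 inhibits both, had 17.5 and 19.2 CPM in Detroit 562 and FaDu and at most 8 counts in a control library of SCC-9. Caspase-8 (CASP8), which FADD recruits, had 53.7, 22.6 and 39.2 CPM in Detroit 562, FaDu and SCC-9, with the lowest level in the line with most FADD. The death receptor gene TNFRSF10A had 13.7 and 20.9 CPM in Detroit 562 and SCC-9 and at most 3 counts in a control library of FaDu. ERC1, whose product binds liprin-α1, had 59.0, 155 and 45.4 CPM. The lines ranked as for PPFIA1, but Detroit 562 and SCC-9 lay closer together.

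Over the 18 libraries, the log2 CPM of ORAOV1 and PPFIA1 correlated with a Pearson r of 0.996 and those of SHANK2 and CTTN with one of 0.994. CTTN was the tested gene most similar to SHANK2, and ORAOV1 and PPFIA1 were each other's runner-up. For every member but SHANK2 the most similar gene lay on another chromosome, RMDN3 for CCND1 (r = 0.997), ATN1 for TPCN2 (0.991), PTCD3 for PPFIA1 (0.997), TMEM8A for FADD (0.996), RAD52 for ORAOV1 (0.996), RP11-500M8.7 for CTTN (0.995), LYN for ANO1 (0.982) and ERO1B for FGF19 (0.965). ANO1 and CCND1 had an r of −0.83. These are descriptions of 18 libraries from only 3 lines, so that any gene with the same order of lines has a high r.

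**Figure D3:**
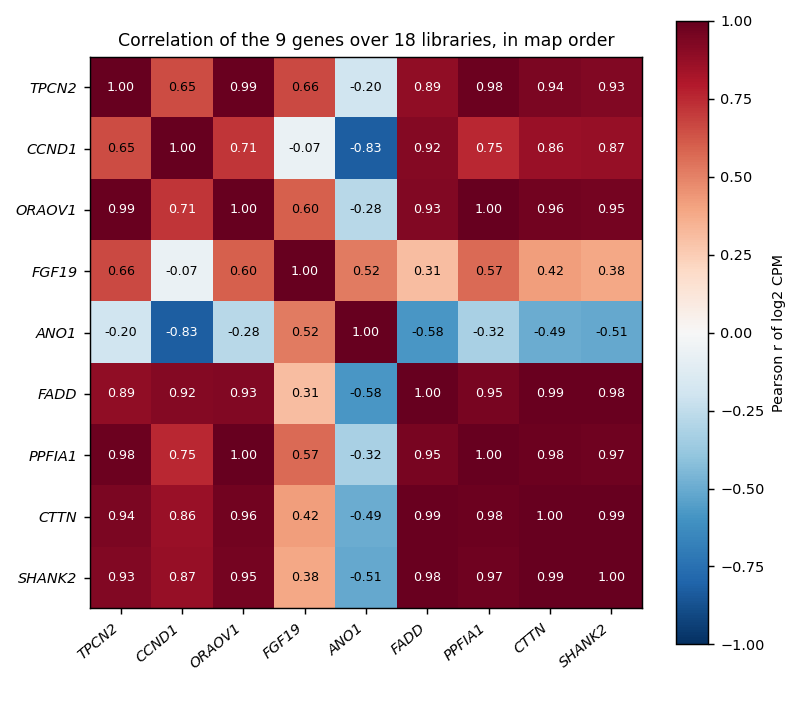
Pearson correlation of log2 CPM over the 18 libraries for each pair of the 9 genes, in map order on both axes, with the color giving r from −1 to 1. TPCN2, ORAOV1, FADD, PPFIA1, CTTN and SHANK2 have r from 0.89 to 0.996 with each other, whereas all values of ANO1 with genes other than FGF19 are negative.

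The second comparison was of HGF against control within each line. In the fit without pairing of libraries by number, no member was called in any line. All genes tested were called there at a share of 17.9% in Detroit 562, at 0.0258% in FaDu and at 0% in SCC-9. In that fit, 0 of 9 can be read against a background only in Detroit 562. When the library number entered the fit as a block, FGF19 was called in FaDu, where 5.6% of all genes were. The study, with DESeq2 at the same thresholds, reported regulated genes in every line. At an unadjusted edgeR p under 0.05, 2 of the 9 (FADD and PPFIA1), 0 and 2 (CCND1 and FADD) passed, against 38.4%, 8.06% and 4.14% of all genes. With DESeq2 no member was called in any line. The 9 genes had median log2 changes of 0.19 (Detroit 562), 0.03 (FaDu) and 0.16 (SCC-9), against −0.006, −0.004 and 0.001 for all genes.

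In Detroit 562, FADD and PPFIA1 passed the adjusted p but not the minimum change of 0.4. FADD went from 148, 151 and 150 CPM to 194, 178 and 190 CPM, and the groups did not overlap. Its log2 change was 0.32 (95% interval 0.19 to 0.45, edgeR adjusted p = 0.0025). PPFIA1 went from 272, 292 and 349 CPM to 369, 374 and 428 CPM, also without overlap, by 0.36 (0.17 to 0.55, edgeR adjusted p = 0.0106). With no minimum change, 16.9% of all genes were higher with HGF at this adjusted p. Leaving out Detroit 562 control 3, the highest control library for PPFIA1, its change became 0.47 (edgeR adjusted p = 0.00148) and was called. No share of all genes is given for that fit.

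Of the other genes in Detroit 562, CTTN had 956, 998 and 1100 CPM in control and 1153, 1128 and 1191 CPM with HGF. The groups did not overlap, which was so for 38.2% of all genes, and the log2 change was 0.19 (95% interval −0.04 to 0.41, edgeR adjusted p = 0.22). TPCN2, CCND1, ORAOV1, ANO1 and SHANK2 changed by 0.11 to 0.23, none past the threshold, and their groups overlapped. All 8 members apart from FGF19 were higher with HGF in each of the 3 pairs of libraries with the same number, as were 30.6% of all genes. FGF19 had 1 count in all 6 libraries together. The summed epithelial markers also differed in this line, from 5710 to 7890 CPM in control and from 3910 to 5580 CPM with HGF, with 3 of the 8 called lower. The fibroblast sum went from 29.8 to 54.2 CPM in control to 15.0 to 27.6 CPM with HGF, and the leukocyte sum from 20.3 to 40.6 CPM to 37.4 to 56.3 CPM. Their part in the values of the 9 genes was not tested.

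In FaDu, CTTN and PPFIA1, the 2 most abundant members, stayed within their spread. CTTN had 2973, 3361 and 3117 CPM with HGF, with a log2 change of −0.01 (95% interval −0.24 to 0.22), and PPFIA1 had 1323, 1396 and 1470 CPM, with one of 0.06 (−0.14 to 0.25). ANO1 had 110, 133 and 87.9 CPM in control and 84.4, 121 and 76.9 CPM with HGF. It was lower in every same-numbered pair, by −0.23 on the log2 scale (−0.55 to 0.09, edgeR adjusted p = 0.681). SHANK2 had 105, 169 and 179 CPM with HGF, higher in every pair, with a log2 change of 0.32 (−0.15 to 0.79, edgeR adjusted p = 0.693).

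In FaDu the FGF19 counts were 79, 69 and 20 in the control libraries against 21, 48 and 13 after HGF. It was lower in 3 of 3 pairs although the groups overlapped, and the summed counts had a ratio of control to HGF of 2.04 (95% interval 1.56 to 2.70, counting error only). The log2 change was −1.02 (SE 0.52, edgeR adjusted p = 0.63), and it was −0.68 without FaDu HGF 3 and −1.75 without FaDu HGF 2. Libraries with the same number varied together, and when that number entered the fit as a block the change was −1.04 (SE 0.32, edgeR adjusted p = 0.0541), which was a call; in that fit 5.6% of all genes were called.

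In SCC-9, FADD had 38.5, 38.2 and 35.3 CPM in control and 42.8, 40.8 and 47.2 CPM with HGF. The groups did not overlap, as in 17.4% of all genes, and the log2 change was 0.22 (95% interval 0.09 to 0.36, edgeR adjusted p = 0.774). SHANK2 had 3.08, 3.54 and 6.46 CPM with HGF against 2.92, 3.30 and 2.98 CPM, with the difference mainly in SCC-9 HGF 3 (log2 change 0.50, −0.09 to 1.10, and 0.11 without that library). The control libraries held 15, 5 and 4 FGF19 counts, the HGF libraries 2, 3 and 4 (edgeR adjusted p = 1). The depth-scaled ratio of control to HGF was 2.71 (1.21 to 6.61, counting error only), and it rested on SCC-9 control 1 with 15 counts. Without that library the fitted log2 change of FGF19 was −0.59 in place of −1.39.

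In every line, all 3 HGF libraries had more CCND1 than the control library of the same number. With HGF it had 1235, 1280 and 1308 CPM in Detroit 562, 1029, 844 and 1059 CPM in FaDu and 281, 229 and 263 CPM in SCC-9, which can be set beside the control values above. The log2 changes were alike in size, 0.23 (95% interval −0.01 to 0.47), 0.23 (−0.01 to 0.47) and 0.30 (0.06 to 0.54), and edgeR adjusted p was 0.145, 0.62 and 1. With the replicate block they passed the adjusted p (edgeR, 0.00493, 0.0271 and 0.0133) but not the minimum change, where 26.3%, 7.5% and 1.83% of all genes were higher at this p. Of all genes tested, 7.7% were higher in all 9 pairs, and SHANK2 was the only other member among them.

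**Figure D4:**
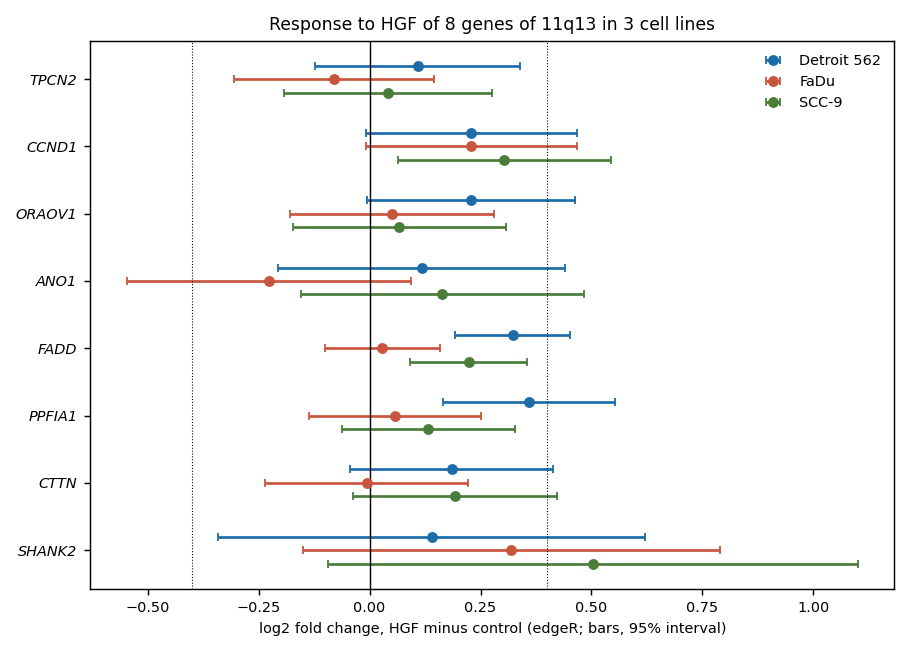
Log2 change with HGF (horizontal axis) of 8 genes in the 3 lines. Points are edgeR estimates from 3 against 3 libraries, bars 95% intervals and dotted lines ±0.4. FADD and PPFIA1 in Detroit 562 (0.32 and 0.36) and FADD and CCND1 in SCC-9 (0.22 and 0.30) have intervals above 0, and no point but SHANK2 in SCC-9 lies beyond 0.4.

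Whether the response differed between lines was tested as an interaction, called by the adjusted p alone. No member was called, against 0.239% of all genes for Detroit 562 minus FaDu, 0.924% for Detroit 562 minus SCC-9 and 0% for FaDu minus SCC-9. At an unadjusted edgeR p under 0.05, 2 of the 9 (FADD and PPFIA1), 0 and 1 (FADD) passed, against 11.6%, 15.4% and 2.18% of all genes. With DESeq2, FADD was called between Detroit 562 and FaDu (0.28, DESeq2 adjusted p = 0.0844). No share of all genes is given for that fit, and the edgeR shares do not apply to it. The response of CCND1 in Detroit 562 and FaDu differed by 0.00 (95% interval −0.34 to 0.34), that of FADD by 0.29 (0.11 to 0.48, edgeR adjusted p = 0.221) and that of PPFIA1 by 0.30 (0.03 to 0.58, edgeR adjusted p = 0.391). With the replicate block, FADD (0.29, edgeR adjusted p = 0.0227), PPFIA1 (0.31, 0.0244) and ANO1 (0.36, 0.00741) were called between Detroit 562 and FaDu, where 19.1% of all genes were. PPFIA1 was also called between Detroit 562 and SCC-9 (0.24, edgeR adjusted p = 0.0561, 26.9% of all genes) and ANO1 between FaDu and SCC-9 (−0.40, edgeR adjusted p = 0.0229, 1.32% of all genes). Without the block, FADD was called between Detroit 562 and FaDu with DESeq2, as given above. PPFIA1 was called between these lines when Detroit 562 control 3 was left out (0.41, edgeR adjusted p = 0.0997). For the fit without that library, too, no share of all genes is given. The other calls were made only with the pairing of libraries by number.

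Among neighbors and partners of the 9 genes, the shares called with HGF in Detroit 562 did not exceed the 17.9% of all genes. MYEOV had 58.8 CPM in control and 81.0 CPM with HGF, a log2 change of 0.46 (SE 0.22, edgeR adjusted p = 0.13) that was not called. With the replicate block it was 0.47 (SE 0.08, edgeR adjusted p = 0.000345) and was called, as was that in SCC-9 (0.53, edgeR adjusted p = 0.0201). In that fit, 26.3% of all genes in Detroit 562 and 1.83% in SCC-9 were higher at an adjusted p below 0.1 with no minimum change. Blocked values of the other listed neighbors and partners are not given here. Of the flanking lists 1 of 8 centromeric genes was higher (GAL, which encodes the neuropeptide galanin, 1.04, edgeR adjusted p = 0.0029) and 2 of 12 telomeric genes lower. Of the 24 partners, the death receptor genes TNFRSF10A (0.88, edgeR adjusted p = 0.0047) and TNFRSF10B (0.46, edgeR adjusted p = 0.0351) rose and CASP10, encoding a caspase that FADD also recruits, fell by 0.73 (edgeR adjusted p = 0.0117). Of the 16 paralogs, ANO7 rose and ANO3 fell. In FaDu and SCC-9, 0 genes of these lists were called without the block.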

How the data were processed

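The authors made stranded mRNA libraries (TruSeq), sequenced them on an Illumina instrument, trimmed reads with Cutadapt 1.16, aligned them with STAR 2.5.2b to GRCh38.p12 with GENCODE 28 and counted them with bedtools. The deposited values are raw counts per gene on the read's strand, without normalization. A read within overlapping genes on 1 strand was counted for each.

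The analysis used edgeR 4.0.16 in R 4.3.3. The function filterByExpr left 15475 of 19901 genes, TMM factors were 0.931 to 1.051, and a quasi-likelihood model with 1 mean for each of the 6 groups was fitted to 18 libraries, with Benjamini-Hochberg adjustment over all genes. Calls needed an adjusted p below 0.1 and, except for interactions, a log2 change of at least 0.4, the thresholds of the study. DESeq2 1.42.0 was an alternative. CPM are TMM-normalized. Levels per kb use GENCODE 44 exons. The scripts were tested on simulated data. No column of the table was left unused.

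The members and lists were chosen with earlier results of these data known. The text names all 9 members, genes of the position, paralog, partner and marker lists, and the genes most similar to each member. Same-numbered libraries of a line correlated in their deviations from group means at 0.161 to 0.563 in every pair, and different numbers at −0.489 to 0.218. The ranges overlapped in Detroit 562, where control 1 with HGF 2 (0.218) exceeded control 2 with HGF 2 (0.161). The label numbers were taken to pair control and HGF libraries, and blocked values are given where they change a call.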

Additional observations from a re-analysis of the deposited data

Results flagged for a closer look

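ANO1 was singled out because every same-numbered pair of libraries moved up with HGF in Detroit 562 and in SCC-9 and every pair moved down in FaDu. The log2 change was 0.117 in Detroit 562 and 0.164 in SCC-9, and in FaDu it was −0.227. Without the replicate block the differences of these responses were not called (edgeR adjusted p = 0.55 for Detroit 562 minus FaDu and 1 for FaDu minus SCC-9). With it they were (edgeR adjusted p = 0.00741 and 0.0229). The difference in direction was noticed in these same libraries.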

How the results depend on the processing

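The alternatives were other scaling factors, other filters on low counts, stricter or no minimum change, only the libraries compared, DESeq2, the replicate block and leaving out each library. The 3 counts of members called between untreated lines stayed within 1.5 times the main counts under every alternative, at 7 to 9, 8 to 9 and 7 to 9 of 9. With the replicate block, the members called moved from 0 to 1 for HGF in FaDu (FGF19) and to 3, 1 and 1 for the differences in response between Detroit 562 and FaDu, Detroit 562 and SCC-9, and FaDu and SCC-9. The block changed no other count of members called. With no minimum change, 2 members were called for HGF in Detroit 562. With DESeq2 without a prior, 1 member was called for the difference in response between Detroit 562 and FaDu. Leaving out libraries gave 0 to 1 for HGF in Detroit 562 and 0 to 1 for that difference, the 1 being PPFIA1 in both without Detroit 562 control 3. Shares of all genes called are not given for DESeq2 or for the fits without a library. A filter of at least 50 counts in 3 libraries left FGF19 with no value. Apart from the construction of each alternative, the cause of a change was not tested.

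Some values changed sign, none of them called. The change of CTTN with HGF in FaDu (−0.01) was 0.0031 with DESeq2 size factors in edgeR and 0.0031 in both forms of DESeq2, 0.0081 without a filter, 0.0021 with at least 50 counts and 0.0029 with only the libraries compared. The difference in the response of CCND1 between Detroit 562 and FaDu (0.00) was −0.015 with DESeq2 size factors and with DESeq2, −0.0081 with upper-quartile factors, −0.00151 without a filter and −0.010 with at least 50 counts. That of CTTN between Detroit 562 and SCC-9 (−0.01) was 0.0019 without a filter and 0.0075 with the replicate block. Leaving out single libraries, the change with HGF ranged from −0.00031 to 0.24 for SHANK2 in Detroit 562. In FaDu the ranges were −0.046 to 0.13 for ORAOV1, −0.16 to 0.0089 for TPCN2, −0.066 to 0.080 for CTTN and −0.0066 to 0.053 for FADD, and in SCC-9 −0.070 to 0.13 for TPCN2. The difference in response between Detroit 562 and FaDu ranged from −0.094 to 0.10 for CCND1. Between Detroit 562 and SCC-9 it ranged from −0.17 to 0.029 for CCND1, −0.11 to 0.15 for CTTN, −0.016 to 0.18 for TPCN2, −0.11 to 0.036 for ANO1 and −0.56 to 0.034 for SHANK2. Between FaDu and SCC-9 it ranged from −0.11 to 0.058 for ORAOV1, −0.42 to 0.72 for FGF19, −0.37 to 0.22 for SHANK2, −0.16 to 0.020 for CCND1, −0.20 to 0.00043 for TPCN2 and −0.13 to 0.033 for PPFIA1.

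The 3 libraries per group limit what can be seen. In the fit without the replicate block, the 95% intervals of the changes with HGF in Detroit 562 reached past the minimum of 0.4 for every member but TPCN2. The width of these intervals also depends on that fit. Where standard errors of both fits are given above, those with the block were smaller. FGF19 counts limit any statement on that gene to FaDu and SCC-9.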
